A study of Mus musculus with 6 samples.

Results

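The rows described here are the class I endogenous retroviruses of the mouse genome (family ERV1 in the repeat annotation) without the rows named for murine leukaemia virus, GLN, MuRRS, MURVY and VL30. They were chosen by family and name alone: rows of family ERV1, without names that start with RLTR4_, MMERGLN, MuLV, MuRRS, MURVY or MMVL30 and without the RLTR6 group. This gave 104 of the 1336 rows in the files. Of them 34 have rodent names (starting with RLTR or RMER), 65 have names starting with LTR or MER, which mostly denote older elements shared with other mammals, and 5 have other names. A row is the sum over all genomic copies that carry a repeat name, without chromosome positions.

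The libraries came from mouse embryonic fibroblasts of strain BALB/c, from embryos aged 10.5 days, and were made from total RNA after depletion of ribosomal RNA. There were 3 wild-type (WT) libraries and 3 libraries of β-actin knockout (KO) cells, which lack both copies of Actb; its product, β-actin, forms actin filaments and is also found in the nucleus. The series describes them as biological replicates, and the labels do not say whether they came from separate embryos or from cultures of a shared cell line; p-values then measure the spread between these libraries, which may be technical. The files hold repeat and structural RNA rows only, so neither Actb nor fibroblast marker genes were analysed here.

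Endogenous retroviruses are remains of retroviral infections of the germ line. A complete copy has internal sequence, which once encoded the viral proteins, between a pair of long terminal repeats (LTRs), which hold the promoter, and most copies have recombined to a solitary LTR. ERV1 elements are related to gammaretroviruses. The internal regions carry names ending in -int, and the other names here are mostly LTRs. RNA read from an LTR can start in it, or can belong to a longer transcript that contains it, and the counts do not tell these apart.

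Library totals ran from 7708630 to 19288620 fractional counts, and ribosomal RNA took 32.4% (WT replicate 1) to 84.8% (KO replicate 1) of them. WT replicate 1 and KO replicate 2, at 32.4% and 52.9%, stood apart as the libraries lowest in ribosomal RNA. The ERV1 rows described here held 37514, 11636 and 22168 counts in the WT libraries and 12373, 31259 and 23758 in the KO libraries, here and below in the order of replicates 1, 2 and 3. Levels below are normalized CPM, counts per 1e+06 counts of an effective library size, which edgeR sets by a trimmed mean over the rows (TMM). They are not per length or per copy, so levels of different rows are not ranked as expression.

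The summed level of all 104 rows differed little between the genotypes. It was 1557, 1513 and 1543 normalized CPM in the WT libraries and 1516, 1552 and 1602 in the KO libraries, with means of 1538 ± 22.1 (SD, n = 3) and 1557 ± 43.5. The WT and KO ranges overlapped. In bulk RNA, fewer cells with an RNA and less of it per cell cannot be told apart. The 34 rodent-named rows summed to 734 ± 15.4 in WT and 719 ± 28.2 in KO, and the 65 rows with LTR and MER names to 591 ± 12.8 and 603 ± 5.60. Both sums overlapped between the genotypes. All 104 rows made up 27.0% ± 2.79 of all ERV1 counts in WT and 31.4% ± 2.38 in KO. This share overlapped, at 29.8%, 24.3% and 26.9% in WT and 28.7%, 33.2% and 32.3% in KO. The 14 ERV1 rows that the rule leaves out, the rest of the ERV1 counts, summed to 4195 ± 532 normalized CPM in WT and 3422 ± 325 in KO. They overlapped too, with KO replicate 1 at 3772 and WT replicate 1 at 3660.

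KO cells differed from WT cells in few of these rows. Of 93 rows with enough counts to be tested, 1 rose and 2 fell (edgeR quasi-likelihood test over all rows, p below 0.05 after Benjamini-Hochberg adjustment). This is 3.23% of the tested rows, beside 5.78% of all 1193 rows tested, 2.18% higher and 3.6% lower in KO. The rows that fell were LTRIS2 and LTRIS_Mus, LTRs of the mouse, and the row that rose was MER92D, an old LTR with few reads. All 3 have LTR or MER names, 5.45% of the 55 tested rows with such names, near the 5.78% of all rows. Without LTRIS and MERV1 names it was 1 of 44 (2.27%). No rodent-named row passed. The count was 1 with DESeq2 (LTRIS2), beside 77 of all rows, and 0 with limma-voom, beside 63 of all rows. It was also 0 with edgeR without WT replicate 1 and KO replicate 2, beside 9 of all rows. At an unadjusted p below 0.05 limma-voom had 14 of the 93 rows and 261 of all 1193. The edgeR fit without those libraries had 12 of 89 and 182 of 1161 at that threshold, and the fit of all 6 libraries 16 of 93 and 249 of 1193. The median log2 fold change of the 93 rows was 0.031, beside 0.012 for all rows. KO and WT libraries did not overlap in 17.2% of them, beside 25.8% of all rows.

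The remaining 11 rows, 10 of them with LTR or MER names, had 0 to 23 counts per library and were not tested. No tested row entered the test through the libraries of a single genotype.

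**Figure D1:**
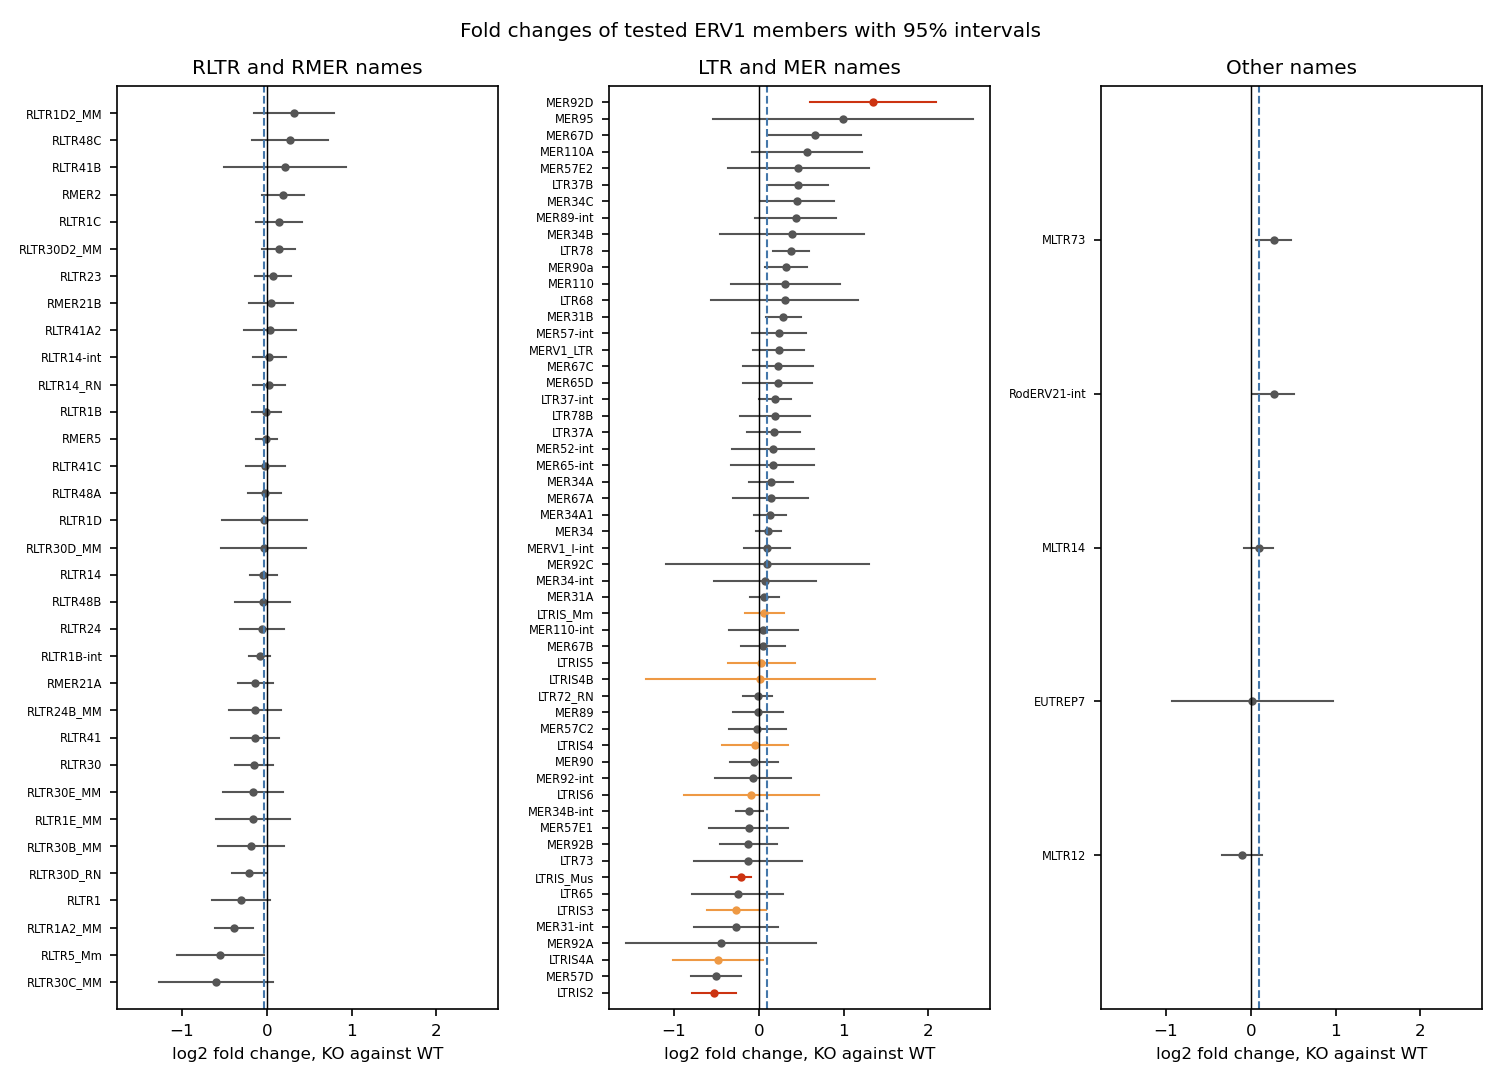
Log2 fold changes of KO against WT (x axis) with 95% intervals for the 93 tested ERV1 rows, in panels by name start; red marks the 3 called rows, orange the other LTRIS rows, the dashed line the median of the panel. Rows with RLTR and RMER names centre just below 0 and rows with LTR and MER names above 0, with wider intervals.

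Rows with RLTR and RMER names and rows with LTR and MER names leaned in opposite directions by small amounts. Among the 33 tested rodent-named rows 22 had a fold change below 0 and 11 above, with a median of -0.035. Of the 55 tested rows with LTR and MER names 36 were above 0 and 19 below, with a median of 0.10. Of all tested rows 47.7% lay below 0. The difference of the medians, rodent minus LTR and MER names, was -0.14 on the log2 scale. It lay between -0.19 and -0.096 in 17 alternative fits, each below 0. These fits reuse the same libraries and mostly the same rows, so the shared sign is no separate support. The rodent median itself came close to 0, at -0.0069 without KO replicate 1. The rows share libraries and may share reads, so this difference was not tested.

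The name split is not a clean split by age. The 5 rows with other names, among them the rodent retrovirus row RodERV21-int (log2 fold change 0.27), are in neither group. Of these 5 rows 4 lay above 0, with a median of 0.093, against the direction of the rodent names. Among the LTR and MER names are 9 LTRIS rows and 2 MERV1 rows; LTRIS elements are mouse LTRs of the MuRRS group of retrovirus-related sequences. Without these 11 rows the median of the remaining 44 was 0.16, 31 of them lay above 0, and the difference of the medians was -0.19; this grouping was chosen after seeing the data. Low counts were also more common there: 15 of the 55 rows, but 2 of the 33 rodent-named rows, had a mean under 50 counts. With a mean of at least 50 counts required, the medians were -0.030 for 31 rodent-named rows and 0.066 for 40 rows with LTR and MER names. The 44 rows still hold LTR72_RN (log2 fold change -0.0097), whose suffix the rodent-named RLTR30D_RN also carries.

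Library by library, the planned measure of the lean overlapped between the genotypes (below). A measure that was not planned separated them for LTR and MER names but not for rodent names. For this, each row was set to its own mean over the 6 libraries on a log2 scale with 0.5 added. The median over the rows was then taken in each library. For LTR and MER names it was -0.069, -0.066 and -0.035 in WT and 0.046, 0.0096 and 0.051 in KO. All 3 KO libraries lay above all 3 WT libraries. For the rodent names it was 0.080, 0.038 and -8.2e-05 in WT and -0.069, -0.011 and 0.028 in KO, and KO replicate 3 lay within the WT range. The deviations of a row sum to 0, so WT and KO tend to opposite signs. The measure planned was the rodent median log2 level minus that of the LTR and MER names. It overlapped, at 1.47, 1.38 and 1.19 in WT and 1.10, 1.33 and 1.18 in KO. The median log2 level of LTR and MER names also overlapped, at 2.62, 2.70 and 2.82 in WT and 2.75, 2.69 and 2.64 in KO.

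**Figure D2:**
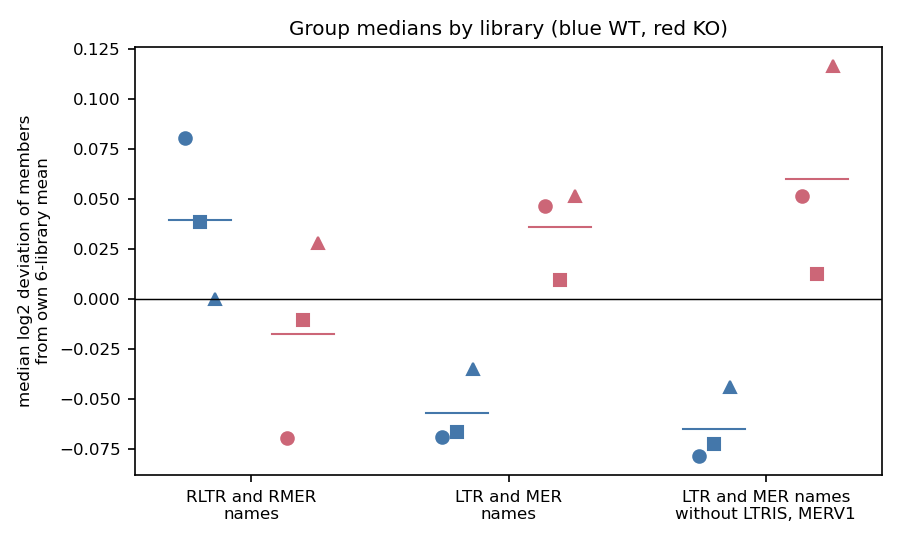
Median log2 deviation of the tested rows from their own 6-library mean (y axis) for 3 groups of names (x axis), a point per library (circle, square and triangle for replicates 1, 2 and 3; blue WT, red KO) and lines at the group means. For LTR and MER names the KO points lie above 0 and the WT points below 0. For the rodent names the genotypes overlap.

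On the total-count scale, with ribosomal RNA included, the median of all rows moved from 0.012 to -0.36. The rodent median was then -0.43 and that of the LTR and MER names -0.31, and 41 of the 51 rows above 0 on the TMM scale lay below 0. Relative to all rows the rodent names stood at -0.067 and the LTR and MER names at 0.047.

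LTRIS2 passed in more alternatives than the other called rows. Its level was 29.5, 34.3 and 34.4 normalized CPM in WT and 18.4, 24.8 and 23.4 in KO. Every KO library was lower than every WT library, and KO replicate 1 was the lowest. The mean fell from 32.8 ± 2.78 to 22.2 ± 3.37 (SD, n = 3), to 0.677 of the WT level. The log2 fold change was -0.53 with a standard error of 0.11 and a 95% interval of -0.78 to -0.27 (adjusted p = 0.0330 by edgeR). It passed in 10 of 17 alternatives. Leaving out a single library ended the call for WT replicate 2 (-0.50), for WT replicate 3 (-0.48), for KO replicate 2 (-0.62) and for KO replicate 3 (-0.56). The adjusted p over the alternatives ran from 0.00107 with DESeq2 to 0.132, and was 0.998 on the total-count scale.

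LTRIS_Mus, another LTR of this kind, fell less. It was at 41.9, 39.4 and 41.3 normalized CPM in WT and at 33.8, 36.0 and 35.9 in KO. KO lay below WT throughout, with little spread within each genotype. The log2 fold change was -0.21 with a standard error of 0.05 (adjusted p = 0.0497 by edgeR, just under the threshold, and 0.0433 to 0.329 in the alternatives on a normalized scale). It passed in 3 of 17 alternatives and did not pass in any of the 6 fits that lacked a library, at -0.24 to -0.19.

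The other 7 LTRIS rows did not pass. LTRIS3 was at 5.89, 7.02 and 6.68 normalized CPM in WT and 5.88, 4.87 and 5.53 in KO, with a log2 fold change of -0.27. LTRIS4A was at 3.90, 5.33 and 6.12 in WT and 2.94, 4.07 and 3.44 in KO, with a log2 fold change of -0.48 and an interval of -1.01 to 0.052. LTRIS_Mm was at 12.2, 11.1 and 10.7 in WT and 11.1, 12.5 and 11.9 in KO. LTRIS3 lay just below its WT range in all KO libraries, while LTRIS4A and LTRIS_Mm overlapped.

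LTRIS4, LTRIS5 and LTRIS6 had log2 fold changes of -0.045, 0.031 and -0.087. Over the 9 rows 6 lay below 0, with a median of -0.087. Their summed level was 109, 121 and 118 normalized CPM in WT and 97.2, 99.1 and 96.9 in KO, without overlap. Most of that difference came from LTRIS2 and LTRIS_Mus: the other 7 rows summed to 42.8 ± 4.73 in WT and 40.3 ± 4.04 in KO.

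LTRIS4B overlapped between the genotypes and was high in the libraries highest in ribosomal RNA. It was singled out after its values were seen. Its level was 2.45, 8.19 and 4.38 normalized CPM in WT and 9.19, 2.04 and 4.05 in KO. Both high values came from WT replicate 2 and KO replicate 1, in which ribosomal RNA took 84.1% and 84.8% of the counts, and both low values from WT replicate 1 and KO replicate 2. Its raw counts were nearly flat, from 41 to 75 per library, while those of LTRIS2 ran from 150 to 712. The order of the low values did not follow ribosomal RNA: KO replicate 2, at 52.9%, lay below WT replicate 1, at 32.4%. The part of ribosomal RNA in these values was not tested.

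The MuRRS internal regions, left out by the rule, give the other side of these LTRs. MuRRS-int was at 34.9, 39.7 and 35.0 normalized CPM in WT and 37.6, 35.9 and 37.3 in KO, with a log2 fold change of 0.024 and an interval of -0.12 to 0.17 (adjusted p = 0.878 by edgeR). This interval does not reach the fold change of LTRIS2, -0.53, which is the largest among the LTRIS rows. It overlaps the interval of LTRIS_Mus, -0.33 to -0.097. The difference between the rows was not tested. MuRRS4-int, at 56.4, 227 and 129 in WT and 206, 64.5 and 142 in KO, was high in the same libraries as LTRIS4B.

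**Figure D3:**
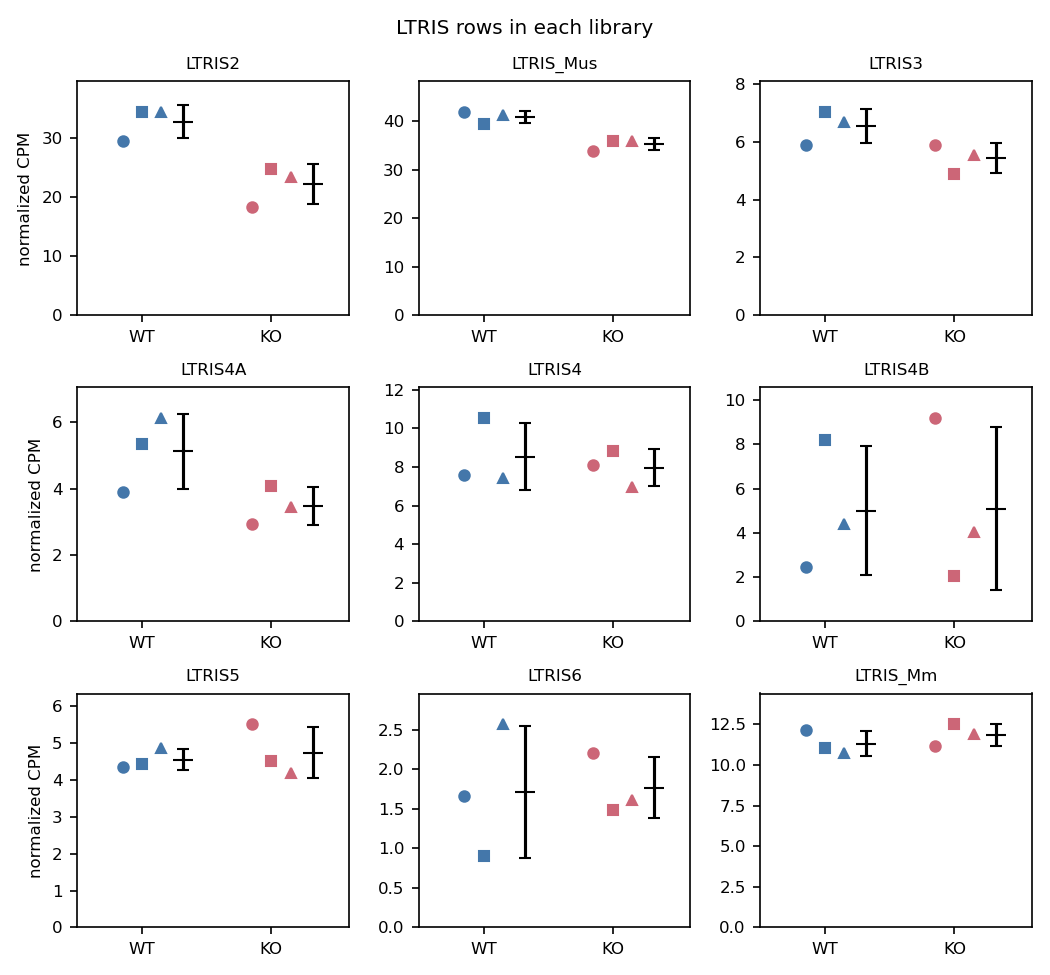
Normalized CPM (y axis, from 0) of the 9 LTRIS rows in the 3 WT (blue) and 3 KO (red) libraries; circle, square and triangle are replicates 1, 2 and 3, black bars the mean ± SD. LTRIS2 and LTRIS_Mus separate by genotype, and LTRIS4B spreads as widely within each genotype.

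MER92D is an old LTR, and its rise rests on few reads. It had 9, 6 and 7 counts in WT and 10, 26 and 18 in KO. On the normalized scale this was 0.373, 0.780 and 0.487 CPM in WT and 1.23, 1.29 and 1.21 in KO. All KO libraries lay above all WT libraries. The log2 fold change was 1.35 with a standard error of 0.32 and an interval of 0.61 to 2.08 (adjusted p = 0.0499 by edgeR, and 0.0464 to 0.207 in the alternatives on a normalized scale). It passed in 1 of the 15 alternatives in which it was tested, and in none of the 6 fits that lacked a library (1.06 to 1.56). The other 4 MER92 rows lay between -0.44 and 0.10.

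LTR78 and MER57D were the next in line among these names and moved in opposite directions without passing. LTR78 was at 11.3, 10.3 and 10.5 normalized CPM in WT and 13.0, 14.4 and 14.4 in KO. Its log2 fold change was 0.38, with an interval of 0.17 to 0.59 (adjusted p = 0.0557 by edgeR, and 0.0400 to 0.255 in the alternatives on a normalized scale). It passed with ribosomal RNA as a covariate (0.41), without a count filter (0.37) and in LTR rows alone (0.37). It was at -0.00330 on the total-count scale.

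MER57D was at 10.4, 11.1 and 11.3 in WT and 7.96, 6.65 and 8.63 in KO. The genotypes did not overlap in either row. Its log2 fold change was -0.51, with an interval of -0.80 to -0.21 (adjusted p = 0.0636 by edgeR, and 0.0312 to 0.306 in the same alternatives). It passed with ribosomal RNA as a covariate (-0.55). MER57D went against the lean of its group, and the other 4 MER57 rows lay between -0.12 and 0.47.

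MER31B was at 24.3, 25.1 and 21.2 normalized CPM in WT and 31.4, 28.8 and 26.4 in KO, or 0.29 as log2 fold change (adjusted p = 0.0990 by edgeR). Its KO libraries lay above its WT libraries. MER31A, a related LTR, was at 29.8, 24.8 and 28.6 in WT and 29.6, 30.0 and 28.5 in KO, a log2 fold change of 0.067 with an interval of -0.10 to 0.24. MER31-int was at -0.27.

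Of the 6 rows with LTR and MER names at the highest level, LTRIS_Mus and LTRIS2 fell (above), and MER34B-int, MERV1_I-int, MER31A and MER34 did not pass. MER34B-int, an internal region, was at 82.2, 97.7 and 93.8 normalized CPM in WT and 88.8, 82.2 and 81.6 in KO, a log2 fold change of -0.11 with an interval of -0.27 to 0.047. MERV1_I-int, the internal region of the MERV1 retrovirus, was at 48.9, 36.5 and 44.3 in WT and 40.1, 47.8 and 52.2 in KO, a log2 fold change of 0.10 with an interval of -0.17 to 0.37. MER34 was at 27.4, 25.4 and 27.4 in WT and 30.6, 27.5 and 29.5 in KO, a log2 fold change of 0.11. MER34B-int and MERV1_I-int overlapped between the genotypes, and MER34 in KO started where WT ended.

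The lean of each group can also be listed by numbered series, rows that share a name stem. Of 13 series with LTR or MER names and at least 2 tested rows, 10 had a median above 0. In 6 of them (LTR37, LTR78, MER65, MER67, MER110 and MERV1) every tested row was above 0, with medians from 0.17 to 0.31. Of 7 rodent-named series 5 had a median below 0, the lowest being RLTR30 at -0.16, and RLTR24 had both rows below 0. The series hold 49 of the 55 tested rows with LTR and MER names and 29 of the 33 rodent-named rows. These are mostly the rows that set the lean, so the series are no separate support for it. Related rows may also share reads, so these counts are descriptions.

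**Figure D4:**
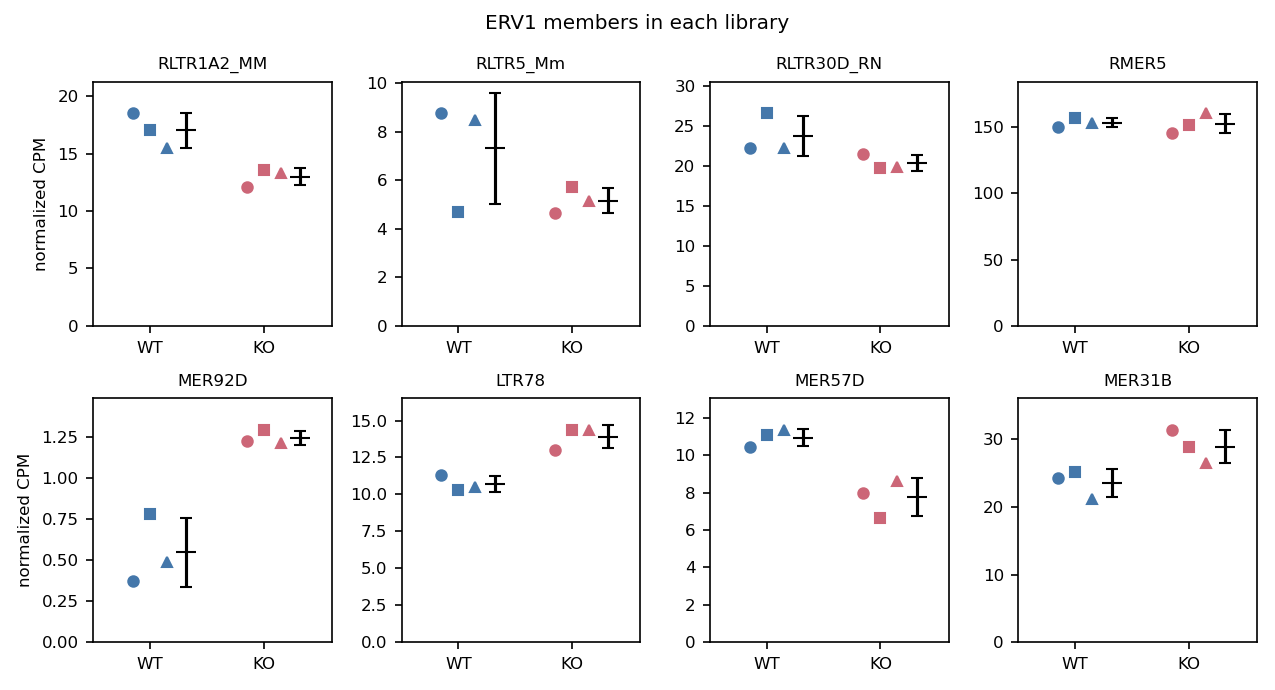
Normalized CPM (y axis, from 0) of 8 ERV1 rows in the 3 WT (blue) and 3 KO (red) libraries; circle, square and triangle are replicates 1, 2 and 3, black bars the mean ± SD. RLTR1A2_MM, MER57D, LTR78, MER31B and MER92D separate by genotype, and RMER5 does not.

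No rodent-named row passed by edgeR, DESeq2 or limma-voom; at an unadjusted edgeR p below 0.05 there were 0 higher and 3 lower of 33, 9.09%, beside 20.9% of all rows (9.56% higher and 11.3% lower). The precision here was higher than for the older names: in 25 of the 33 rows the 95% interval lay within a 1.5-fold change either way, compared with 25 of the 55 rows with LTR and MER names and 727 of all 1193 rows.

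RLTR1A2_MM came closest. This LTR was at 18.5, 17.0 and 15.5 normalized CPM in WT and 12.1, 13.6 and 13.3 in KO. Every KO library was below every WT library, at a mean of 0.763 of the WT level. The log2 fold change was -0.39 with a standard error of 0.10 and an interval of -0.61 to -0.16 (adjusted p = 0.0590 by edgeR, and 0.0433 to 0.314 in the alternatives on a normalized scale). It passed without a count filter (-0.39) and in LTR rows alone (-0.40).

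RLTR5_Mm was at 8.76, 4.68 and 8.49 in WT and 4.66, 5.71 and 5.13 in KO. WT replicate 2 lay within the KO range, and the other WT libraries were above it. The log2 fold change was -0.55 with an interval of -1.06 to -0.034 (adjusted p = 0.210 by edgeR), and the row passed without WT replicate 2 (-0.72, edgeR adjusted p = 0.0418, beside up to 0.514 in other alternatives on a normalized scale).

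RLTR30D_RN was at 22.2, 26.5 and 22.2 in WT and 21.4, 19.7 and 19.9 in KO, a log2 fold change of -0.21 (adjusted p = 0.218 by edgeR). RLTR30C_MM, with 8 to 72 counts per library, was at 2.99, 1.82 and 2.37 in WT and 0.980, 1.84 and 1.89 in KO, a log2 fold change of -0.60 with an interval of -1.27 to 0.075. RLTR30D_RN lay just under its WT range in KO and RLTR30C_MM overlapped. In the RLTR30 series 6 of 7 rows were below 0.

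RLTR1, the row that gives its name to a series of 8, was at 10.04, 12.1 and 9.05 in WT and 8.58, 9.14 and 7.08 in KO, a log2 fold change of -0.30 with an interval of -0.64 to 0.043. KO replicate 2 lay within the WT range. In the series 6 of 8 rows were below 0, with a median of -0.055. This lean depended on the libraries lowest in ribosomal RNA. Leaving out WT replicate 1 moved the median to 0.0013, and dropping KO replicate 2 moved it to -0.0069. With both removed it was 0.042. In each of these fits 4 of the 8 rows were below 0. The median stayed below 0 in the other alternatives.

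The rodent-named rows with the most reads overlapped between the genotypes. RMER5 was at 150, 157 and 153 normalized CPM in WT and 146, 152 and 160 in KO, a log2 fold change of -0.0063 with an interval of -0.13 to 0.12. RLTR1B-int was at 69.7, 72.3 and 66.9 in WT and 69.2, 62.2 and 66.4 in KO, with an interval of -0.20 to 0.044. RLTR14 was at 52.0, 56.7 and 51.4 in WT and 48.3, 50.01 and 56.3 in KO, with an interval of -0.20 to 0.12. None of these 3 intervals reaches a 1.5-fold change.

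RMER2 was at 44.6, 34.9 and 43.6 in WT and 40.7, 49.3 and 51.1 in KO, a log2 fold change of 0.19 with an interval of -0.058 to 0.44. RLTR41C was at 32.5, 40.7 and 31.5 in WT and 31.6, 33.2 and 36.9 in KO, with an interval of -0.25 to 0.22. Both overlapped between the genotypes.

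Among the 5 rows with neither kind of name, 4 lay above 0 and none passed by edgeR, DESeq2 or limma-voom; 2 had an unadjusted edgeR p below 0.05, both higher in KO, beside 9.56% of all rows in that direction. MLTR73 was at 19.3, 16.0 and 16.4 normalized CPM in WT and 20.3, 20.8 and 22.0 in KO, a log2 fold change of 0.27 (adjusted p = 0.132 by edgeR). RodERV21-int, the internal region of a rodent retrovirus, was at 58.8, 48.4 and 53.3 in WT and 56.1, 63.5 and 74.3 in KO, also 0.27 (adjusted p = 0.191 by edgeR). WT and KO values of MLTR73 did not overlap, and those of RodERV21-int did.

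MLTR14 was at 135, 112 and 135 in WT and 134, 137 and 138 in KO, with WT replicate 2 the only low library. MLTR12 was at 11.95, 13.1 and 12.2 in WT and 12.3, 11.97 and 10.4 in KO. EUTREP7, with 13 to 27 counts per library, had an interval of -0.93 to 0.97 and allows no statement on direction.

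Internal regions and their LTRs were set side by side where both were tested under a shared name. For RLTR1B the log2 fold change was -0.0041 in the LTR and -0.080 in the internal region, and for RLTR14 it was -0.041 and 0.030. For MER34 it was 0.11 and 0.069, and for MER34B 0.39 and -0.11. For MER89 it was -0.010 and 0.44, and for MER110 0.31 and 0.053. None of these 12 rows passed by edgeR, DESeq2 or limma-voom.

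MER89-int was at 2.16, 1.69 and 1.88 normalized CPM in WT and 2.57, 2.63 and 2.77 in KO, without overlap, at 13 to 53 counts per library (adjusted p = 0.283 by edgeR). MER34B, at 15 to 54 counts, was at 2.24, 1.95 and 1.601 in WT and 3.68, 1.44 and 3.17 in KO, with KO replicate 2 the lowest of all. Over the 14 tested internal regions the median was 0.085 and none passed by edgeR, DESeq2 or limma-voom, with 2 (14.3%) at an unadjusted edgeR p below 0.05, beside 20.9% of all rows. Over the 79 other rows it was 0.020, with 1 rise and 2 falls (3.80%, beside 5.78% of all rows).

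Among the LTR families, the ERV1 rows that the rule leaves out had 0 rises and 2 falls of 14 tested (14.3%, beside 5.78% of all rows), with a median of -0.087. ERVK had 14 and 7 of 275 (7.64%), ERVL 1 and 0 of 104 (0.962%), and ERVL-MaLR 0 and 5 of 103 (4.85%). The share of 3.23% here lies between those of ERVL and ERVL-MaLR; differences between these shares were not tested.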

How the data were processed

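Per the labels' protocols the libraries were made with TruSeq Ribo-Zero. The tools named, per the submitters' processing notes, include Bowtie2, Trimmomatic and FastQC 0.11.5, with builds mm10 and GRCm38. For the repeat counter, annotation, strand and division of reads among similar rows nothing is given in the sources. Estimated counts per repeat name, called fractional and stored as whole numbers, were deposited by the authors without normalization.

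Counts of all rows were fitted in R 4.3.3 with edgeR 4.0.16 (filterByExpr, TMM, quasi-likelihood test, Benjamini-Hochberg over 1193 rows, threshold 0.05); 143 rows were not tested. Intervals are 95%, from the standard error and degrees of freedom of that test. Alternatives used DESeq2 1.42.0, limma-voom (limma 3.58.1), other scaling, filters, rows and covariates, and fewer libraries. Named rows were every called row, the 6 with the most reads and the 6 with the smallest p of each name group, all with other names, and LTR and internal pairs; LTRIS and MuRRS rows and numbered series were added after seeing values. The members and lists were chosen with earlier results of these data known. In simulations of 1193 rows with 200 changed, recovery was 68.8% for 1.5-fold and 89.1% for 2-fold changes, with 4.29% of calls false. Recovery was not computed for the ERV1 rows alone, whose median standard error was larger, 0.142 beside 0.122 for all rows. Replicates differed by more than sampling noise.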

Additional observations from a re-analysis of the deposited data

How the results depend on the processing

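Tested ERV1 rows had a median of 59 (WT replicate 2) to 195 (WT replicate 1) counts. MER92D rests on 6 to 26 counts per library; LTRIS2 had 150 to 712 and LTRIS_Mus 276 to 1010. Calls over all rows were 0 by total counts, 41 without structural RNA, 34 in LTR rows alone, 24 with a replicate block, 9 without WT replicate 1 and KO replicate 2, and 22 to 69 without single libraries (69 as reported). Beside the 0 by total counts, 3 rows had an unadjusted edgeR p below 0.05. ERV1 calls numbered 0 by total counts, with limma-voom and without those 2 libraries, 1 with a mean of at least 50 counts, without structural RNA, with the block and with DESeq2, 5 in LTR rows alone, and 0 to 1 without single libraries (3 as reported). For LTR and MER names the counts were the same except for 4 in LTR rows alone, 0 without WT replicate 2, and 1 without LTRIS and MERV1 names. Without a count filter ERV1 calls numbered 4, and those with LTR and MER names 3. Rodent-named calls numbered 1 without a count filter and in LTR rows alone, and 0 to 1 without single libraries. The rodent median was -0.43 by total counts and -0.087 to -0.0069 without single libraries. The median of LTR and MER names was -0.31 by total counts, 0.066 with at least 50 counts, 0.16 without LTRIS and MERV1 names, and 0.069 to 0.13 without single libraries. The cause of these changes was not tested. Correlations of deviations between WT and KO samples of the same number were -0.55, -0.50 and 0.04 for numbers 1, 2 and 3. They were 0.62 for WT replicate 1 with KO replicate 2 and 0.46 for WT replicate 2 with KO replicate 1. Those pairs are also the lowest and the highest in ribosomal RNA, so the correlations cannot show whether numbers pair the samples. With the replicate block LTRIS2 passed at -0.57, LTRIS_Mus was at -0.21 and MER92D at 1.25.

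By total counts the direction turned for RMER2 (-0.20), RLTR14-int (-0.35), MERV1_I-int (-0.33), MER31A (-0.34), MER34 (-0.31), LTR78 (-0.00330), MER31B (-0.10), MLTR73 (-0.17), RodERV21-int (-0.16), MLTR14 (-0.33), EUTREP7 (-0.18), MER34B (-0.31), MER110 (-0.073), MER110-int (-0.28) and MER34-int (-0.32). None of these passed there. With limma-voom RMER5 was at 3.51e-05, RLTR41C at 0.011 and MER89 at 0.00967. RLTR1B was at 0.00381 with the replicate block, 0.015 with the ribosomal RNA covariate and 0.091 without the 2 libraries lowest in it, and EUTREP7 at -0.17 and -0.23 in those last 2 fits. Without single libraries the range was -0.048 to 0.020 for RMER5, -0.087 to 0.083 for RLTR41C, -0.044 to 0.078 for RLTR14-int, -0.41 to 0.36 for EUTREP7, -0.11 to 0.12 for MER89, -0.073 to 0.052 for RLTR1B, -0.048 to 0.12 for MER110-int and -0.055 to 0.22 for MER34-int.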
